A study of Homo sapiens with 34 samples.

Results

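The genes described here are 10 protein-coding members of the HOXC and HOXD clusters: HOXC4, HOXC5, HOXC6, HOXC8, HOXC9 and HOXC10, and HOXD1, HOXD3, HOXD4 and HOXD8. They were taken by symbol and not by a cut on a measured value, though earlier results of these data were known. They are 10 of the 37951 gene identifiers in the expression tables. RNA was sequenced in 34 libraries, 2 for each of 17 conditions, from wild-type cultures of ESI017, a line of human embryonic stem cells. Cells were steered for 24 h towards definitive endoderm (DE(a)) or towards the anterior, mid or posterior primitive streak (APS, MPS or PPS). Cells of each kind were then given 1 of 3 media for a further day, DE(b) for endoderm, PM for paraxial mesoderm or LM for lateral mesoderm, and collected at 48 h. Condition names join both days, so PPS-LM is PPS followed by LM.

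The media differ in the signals they carry. For day 1, activin, a nodal-type ligand, was used at 100 ng/ml in DE(a) and at 30 ng/ml in APS and MPS, and was left out of PPS. CHIR, which activates Wnt signalling, was at 2 µM in DE(a), 4 µM in APS and 6 µM in both MPS and PPS. The last 3 also held bFGF at 20 ng/ml, and only MPS and PPS held BMP4, at 40 ng/ml. On the second day, DE(b) combined activin (100 ng/ml) with the BMP receptor inhibitor LDN (250 nM), and PM combined bFGF (20 ng/ml), LDN (250 nM) and the activin receptor inhibitor A8301 (1 µM). LM combined BMP4 (30 ng/ml), A8301 (1 µM) and IWP2 (4 µM), which blocks Wnt secretion. A supplementary legend of the study also lists CHIR in PM, and the main text describes PM induction as relying on Wnt activation on day 2. The doses listed for these libraries hold no CHIR in PM, so whether PM carried it is not settled here. The control was undifferentiated and kept in maintenance medium, and the sources give different collection times for it. The cultures are populations of a single cell line, so fewer cells of a type and less RNA per cell cannot be told apart.

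HOX genes encode homeodomain transcription factors that give cells their position along the head-to-tail axis. Within a cluster, the genes at the 3′ end, with the lowest numbers, are switched on first and reach furthest towards the head, and the genes at the 5′ end follow later and further towards the tail. In the primitive streak, Wnt and FGF signals and the CDX transcription factors are known activators of these clusters.

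In GRCh38 both clusters lie on the plus strand. The HOXC genes run on chromosome 12 from HOXC10, which starts at 53985065, to HOXC5, which ends at 54035361, with 1 long HOXC4 transcription unit ending at 54056030. The HOXD genes run on chromosome 2 from HOXD8, which starts at 176129694, to HOXD1, which ends at 176190907. HOXC4 shares 17.5% of its exon bases with HOXC6, and HOXC5 shares 37.9% with an unnamed readthrough transcript (ENSG00000273049), so the assignment of reads among these neighbours is uncertain. None of the exon bases of the 4 HOXD genes is shared with a listed gene.

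The 250 bases upstream of the start are shown for members whose promoter could be searched, since CDX factors, known to bind a TTTAT core, are expressed in many of these conditions. RefSeq windows (GRCh38.p14, plus strand) were matched for 6 of the 10 members. HOXC4 and HOXC5 share 1 window, chr12:54016638-54016887, and the others shown are chr2:176151300-176151549 for HOXD4, chr2:176129455-176129704 for HOXD8 and chr2:176188418-176188667 for HOXD1. By the gene positions given above, which are from GENCODE, HOXC4 starts at 54016931 and HOXC5 at 54033050. The shared window therefore lies beside the HOXC4 start and far upstream of the HOXC5 start in that annotation. Capitals mark TTTAT on either strand.
HOXC4 and HOXC5: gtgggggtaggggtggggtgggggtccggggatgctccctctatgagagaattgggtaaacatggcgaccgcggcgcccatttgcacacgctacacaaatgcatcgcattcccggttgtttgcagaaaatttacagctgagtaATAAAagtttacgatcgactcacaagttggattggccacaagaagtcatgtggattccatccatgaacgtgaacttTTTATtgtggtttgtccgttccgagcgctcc
HOXD4: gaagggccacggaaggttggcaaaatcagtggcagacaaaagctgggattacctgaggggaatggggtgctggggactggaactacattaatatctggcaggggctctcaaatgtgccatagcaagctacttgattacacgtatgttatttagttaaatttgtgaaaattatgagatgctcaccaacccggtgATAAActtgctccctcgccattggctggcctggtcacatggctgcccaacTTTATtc
HOXD8: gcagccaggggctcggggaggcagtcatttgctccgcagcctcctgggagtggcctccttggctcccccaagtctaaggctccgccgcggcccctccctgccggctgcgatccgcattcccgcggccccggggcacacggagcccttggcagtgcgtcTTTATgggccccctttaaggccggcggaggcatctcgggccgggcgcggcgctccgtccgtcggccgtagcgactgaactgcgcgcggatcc
HOXD1: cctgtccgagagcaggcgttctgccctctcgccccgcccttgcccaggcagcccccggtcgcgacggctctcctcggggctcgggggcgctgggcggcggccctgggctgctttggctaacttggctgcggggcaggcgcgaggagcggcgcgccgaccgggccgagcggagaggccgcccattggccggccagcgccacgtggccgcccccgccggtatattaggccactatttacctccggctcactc
The core began 31 and 107 bases before the RefSeq start in the shared HOXC4 and HOXC5 window, 7 and 57 bases before it for HOXD4, and 92 bases before it for HOXD8. The HOXD1 and HOXD3 windows held no match to these letters. Of 34943 windows of the same length, 32.8% held TTTAT. The letters CTTTGA (TCF/LEF), AGGTCA (nuclear receptor half-site) and TGATNNAT (HOX with a cofactor) were searched on both strands too and occurred in none of the members' windows, against 11.2%, 12.1% and 6.49% of all windows.

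Library totals ranged from 15522780 to 23439799 estimated counts. Levels are CPM, counts scaled to a common library total, and 3 counts, taken as the limit for a gene listed at 0, were 0.128 to 0.193 CPM, which covers counting error only. Differences were tested with edgeR's quasi-likelihood test with Benjamini-Hochberg adjustment over 17895 genes ("edgeR adjusted p" below), with all 10 members passing the filter on low counts, and a gene was called at 0.05. Fold changes are on the log2 scale. SE is an approximate standard error, worked back from the test as the fold change divided by the square root of its F statistic. It is least reliable where a group is at or near 0. The study calls the replicates biological, but the labels do not say how the cultures were separated, so p-values measure the spread between these libraries. Markers of each labelled kind of cell were present, though not in those conditions alone and unevenly among the DE(b) conditions. The primitive streak genes TBXT, MIXL1 and EOMES together were at 1574 to 2955 CPM in the 24 h libraries against 1.58 and 1.86 in the control. The endoderm genes SOX17, FOXA2 and CXCR4 were at 124 to 722 CPM in DE(b) and at 234 to 335 in PM, where CXCR4 made up 156 to 335 CPM, and PPS-DE(b) was the lowest of the DE(b) conditions (124 and 252). The paraxial genes TBX6, MSGN1 and CDX2 were at 371 to 466 CPM in PM and at 494 and 501 in PPS-24h, and the lateral genes HAND1, FOXF1 and ISL1 at 451 to 2263 in LM and at most 271 elsewhere. The neural genes PAX6 and SOX1 summed to at most 0.957 CPM in any library. Amnion genes (TFAP2A, GATA3, GABRP, ISL1) reached 327 and 449 CPM in PPS-LM, and their part in the results below was not tested.

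**Figure D1:**
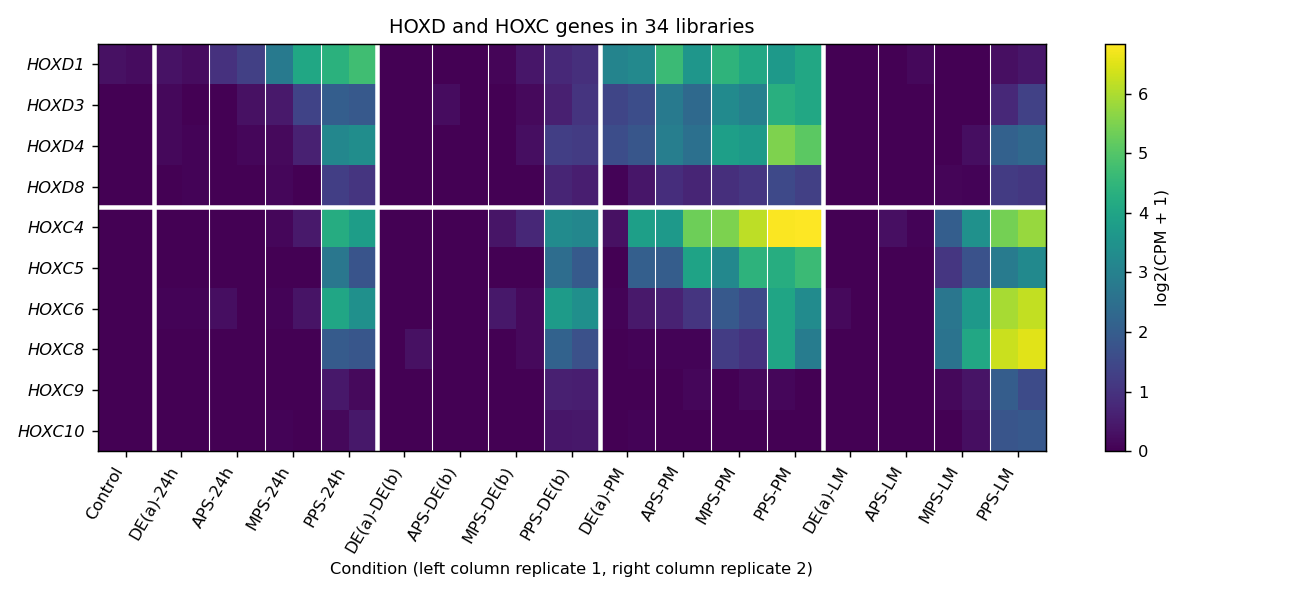
The log2(CPM + 1) level of each member (down the side) in each of 34 libraries (columns, replicates side by side, conditions grouped as control, 24 h, DE(b), PM and LM). PPS columns are lit in every group, all PM conditions show HOXD1, HOXD3 and HOXD4, and the DE(a) and APS columns of DE(b) and LM stay dark.

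In undifferentiated cells these genes were nearly silent. HOXD1 was at 0.226 and 0.160 CPM (5 and 3 counts) and the other 9 members were at 0 in both control libraries. Over the 16 treated conditions, 65 of 160 member comparisons with the control were called higher and 4 lower, where 18.4% of all gene comparisons were called higher and 16.2% lower. Of the 160, 105 had a count in any library compared, and the others could not be called. All 4 lower calls were HOXD1 (DE(a)-DE(b), APS-DE(b), DE(a)-LM and MPS-LM), in libraries listed at 0, and rest on the 5 and 3 control counts.

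At 24 h, the members switched on along the series of day 1 treatments. With both libraries over 3 counts as the measure, 0 of the 10 members were present in DE(a), 1 in APS (HOXD1), 2 in MPS (HOXD1 and HOXD3) and 8 in PPS (all but HOXC9 and HOXC10). In edgeR, 0 members differed from the control in DE(a)-24h (0 at an unadjusted p under 0.05, and 0 by DESeq2, against 19% of all genes), 1 in APS-24h (24.5% of all genes), 3 in MPS-24h (30%) and 8 in PPS-24h (29.8%). The 3 called in MPS-24h were HOXD1, HOXD3 and HOXD4, so no HOXC gene was called before PPS. Members at 0 in both libraries, as in the control, could not be called, 5 of them in DE(a)-24h and 6 in APS-24h.

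HOXD1, the 3′-most gene of the HOXD cluster, rose at each step of the series. Its level was 0.259 and 0.161 CPM in DE(a)-24h, 0.947 and 1.46 in APS-24h, 5.85 and 15.7 in MPS-24h, and 19.6 and 25.6 in PPS-24h, with no overlap between neighbouring conditions. MPS-24h was above APS-24h by 3.16 on the log2 scale (SE 0.54, edgeR adjusted p = 0.0022), a call lost without replicate 1 of APS-24h (adjusted p = 0.0569). APS-24h was not called against DE(a)-24h (edgeR adjusted p = 0.149), and PPS-24h exceeded DE(a)-24h by 6.63 (SE 0.67, edgeR adjusted p = 1.5e-06).

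The HOXC genes appeared together in PPS-24h. HOXC4, the 3′-most HOXC gene, was at 17.7 and 12.9 CPM there, against 0.0868 and 0.393 in MPS-24h and 0 in DE(a)-24h and APS-24h. HOXC5 was at 5.54 and 2.43 CPM, HOXC6, a gene of thoracic identity, at 15.5 and 9.85, and HOXC8, known for patterning the lower neck and thorax, at 2.87 and 2.54. HOXC5 and HOXC8 were listed at 0 in all 6 libraries of the other day 1 treatments, so PPS-24h was at least 25.1-fold and 17.04-fold above DE(a)-24h, and HOXC4 at least 96.6-fold. HOXC9 (0.346 and 0.120 CPM) and HOXC10 (0.0988 and 0.361 CPM) stayed near the floor.

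Across the day 2 treatments, cells that began as PPS held more HOXC and HOXD RNA than cells that began as DE(a). At 24 h, 8 members were called higher in PPS than in DE(a) and 0 lower, where 20.9% of all genes were called in either direction. In DE(b) medium 9 members were called higher (17.4% of all genes called), in PM 5 (8.61%) and in LM all 10 (14.3%), with 0 lower in each. HOXC9 and HOXC10 passed the filter on low counts only through the PPS-LM libraries, so their calls in LM are not independent of it. The median log2 change over the 10 members was 5.375 at 24 h and then 2.69 for DE(b), 3.49 for PM and 4.20 for LM, and between -0.0035 and 0 over all genes. For these medians, genes listed at 0 in DE(a) were put at their lower bound (3 members at 24 h, 9 each in DE(b) and LM), or at a change of 0 where their level in PPS was too low to give one (HOXC9 and HOXC10 at 24 h and HOXC9 in PM). With 1 library left out, the count in DE(b) was 5 without replicate 2 of DE(a)-DE(b), in PM it was 3 without replicate 2 of PPS-PM, and in LM it was 6 without either DE(a)-LM library. These 4 comparisons and those of the other day 1 treatments share libraries.

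**Figure D2:**
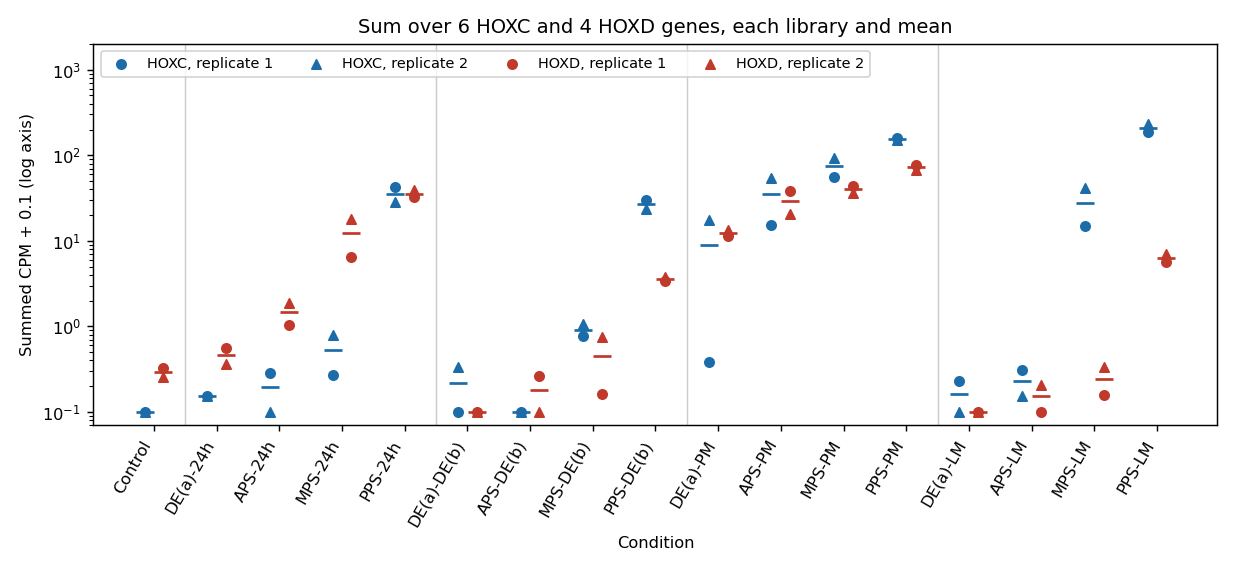
Summed CPM (plus 0.1, log axis) of the 6 HOXC members in blue and the 4 HOXD members in red, for each library (circles replicate 1, triangles replicate 2) and as the mean (dash). The HOXC sum in PPS-LM (189.6 and 231 CPM) is far above the HOXD sum there (5.55 and 6.95 CPM), whereas at 24 h in PPS both sums lie between 28.2 and 42.0 CPM.

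The steps between neighbouring day 1 treatments were uneven. APS against DE(a) gave 0 of 40 member comparisons called over the 4 time and medium contexts (4 at an unadjusted p under 0.05 and 1 by DESeq2, where edgeR called 1.46% of all gene comparisons). Only 20 of these 40 had a count in any library compared, and the rest could not be called. For MPS against APS 31 of 40 had one, and for PPS against MPS 39. MPS against APS gave 4 of 40, all higher (2.12% of all comparisons called), which were HOXD1 at 24 h and HOXC4, HOXC6 and HOXC8 in LM. The HOXC4 call was lost without replicate 2 of MPS-LM or either APS-LM library (adjusted p up to 0.364). PPS against MPS gave 18 of 40, all higher (4.67% called), with 6 members at 24 h (6.14% of all genes), 5 for the DE(b) medium (5.93%), 1 for PM (1.03%) and 6 for LM (5.6%), and 11 of 40 without replicate 2 of PPS-LM. The 1 member called between PPS-PM and MPS-PM was HOXC8, and this call was lost without replicate 1 of PPS-PM or without either MPS-PM library (edgeR adjusted p up to 0.258).

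In PM, the HOXC4 level rose with the day 1 series and its replicates spread widely in DE(a)-PM and APS-PM. HOXC4 was at 0.235 and 13.6 CPM in DE(a)-PM, 11.8 and 38.9 in APS-PM, 43.5 and 70.4 in MPS-PM, and 109.6 and 112.9 in PPS-PM. The DE(a)-PM and APS-PM libraries overlapped, and the difference was not called (log2 fold change 1.88, SE 0.93, edgeR adjusted p = 1). PPS-PM was above DE(a)-PM by 4.03 (SE 1.00, edgeR adjusted p = 0.0195), a call lost without replicate 2 of PPS-PM (adjusted p = 0.0658), and was not called against MPS-PM (0.97, SE 0.88, edgeR adjusted p = 0.767).

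HOXC5 followed HOXC4. It was at 0 and 3.22 CPM in DE(a)-PM, 3.02 and 14.5 in APS-PM, 8.09 and 20.5 in MPS-PM, and 18.1 and 24.4 in PPS-PM. Replicate 2 was the higher library for both genes in all 4 PM conditions. PPS-PM against DE(a)-PM was not called for HOXC5 (log2 fold change 3.76, SE 1.23, edgeR adjusted p = 0.0857). The readthrough transcript that overlaps HOXC5 was at 0.813 and 4.18 CPM in PPS-PM, 0 and 1.104 in MPS-PM and 0 and 0.652 in DE(a)-PM, also higher in replicate 2, and its part in the HOXC5 values was not tested.

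HOXC6 and HOXC8 were low in DE(a)-PM and APS-PM. HOXC6 was at 0.0470 and 0.393 CPM in DE(a)-PM, 0.574 and 1.07 in APS-PM, 2.78 and 1.90 in MPS-PM, and 15.2 and 8.76 in PPS-PM. PPS-PM was above DE(a)-PM by 5.81 on the log2 scale (SE 0.81, edgeR adjusted p = 0.00017). HOXC8 was at most 0.0561 CPM in DE(a)-PM and APS-PM, 1.33 and 1.00 in MPS-PM, and 15.1 and 6.26 in PPS-PM. HOXC9, a gene of thoracic motor neuron identity, and HOXC10, of lumbar identity, were at or under 3 counts in every PM library.

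HOXD1, HOXD3 and HOXD4 were present in PM whatever the day 1 treatment, and HOXD8 was at 1 and 6 counts in DE(a)-PM. HOXD1 was at 7.45 and 8.25 CPM in DE(a)-PM, 24.3 and 11.1 in APS-PM, 20.8 and 16.2 in MPS-PM, and 12.01 and 15.9 in PPS-PM. PPS-PM and DE(a)-PM did not overlap but were not called different (log2 fold change 0.86, SE 0.49, edgeR adjusted p = 0.331). HOXD3, which acts in neck vertebrae, climbed from 1.69 and 2.08 CPM in DE(a)-PM through 6.01 and 4.05 in APS-PM and 8.64 and 6.94 in MPS-PM to 19.0 and 16.1 in PPS-PM.

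HOXD4, a gene of the hindbrain and neck, climbed more steeply, from 2.07 and 2.52 CPM in DE(a)-PM through 6.52 and 4.74 in APS-PM and 13.3 and 12.2 in MPS-PM to 44.7 and 33.8 in PPS-PM. The libraries of neighbouring conditions did not overlap for either gene. PPS-PM was above DE(a)-PM by 4.11 for HOXD4 (SE 0.63, edgeR adjusted p = 0.00046) and by 3.23 for HOXD3 (SE 0.84, edgeR adjusted p = 0.0233). The HOXD3 call was lost without any 1 of the 4 libraries (adjusted p up to 0.202). HOXD8 stayed low, at 0.0470 and 0.337 CPM in DE(a)-PM, 0.869 and 0.640 in APS-PM, 0.883 and 1.11 in MPS-PM and 1.86 and 1.48 in PPS-PM, and PPS-PM against DE(a)-PM was not called (3.12, SE 0.95, edgeR adjusted p = 0.0571).

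DE(a), APS and MPS cells gained members in PM relative to their own 24 h libraries, a comparison added after the data were seen. Of 30 member comparisons, 19 were called higher and 0 lower, where 23.8% of all gene comparisons were called. DE(a)-PM against DE(a)-24h gave 5 (23.6% of all genes), APS-PM 7 (25.1%) and MPS-PM 7 (22.6%). The HOXC4 and HOXC5 calls in DE(a)-PM rest on replicate 2 (without it the HOXC4 adjusted p was 0.271 and the HOXC5 log2 change 0), while HOXD1 rose from 0.259 and 0.161 to 7.45 and 8.25 CPM (5.06, SE 0.65, edgeR adjusted p = 1.9e-05).

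In PPS cells the members differed in how they stood in each medium of the second day. The comparisons among PPS conditions given here were added after the data were seen. In PPS-LM, HOXC8 was at 76.6 and 91.9 CPM and HOXC6 at 60.3 and 72.8, the highest libraries of any condition for both genes. HOXD1, in contrast, was at 0.210 and 0.328 CPM in PPS-LM, after 19.6 and 25.6 at 24 h. The 6 HOXC genes together held 189.6 and 231 CPM in PPS-LM and 158 and 152 in PPS-PM, while the 4 HOXD genes held 5.55 and 6.95 in PPS-LM and 77.5 and 67.3 in PPS-PM.

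**Figure D3:**
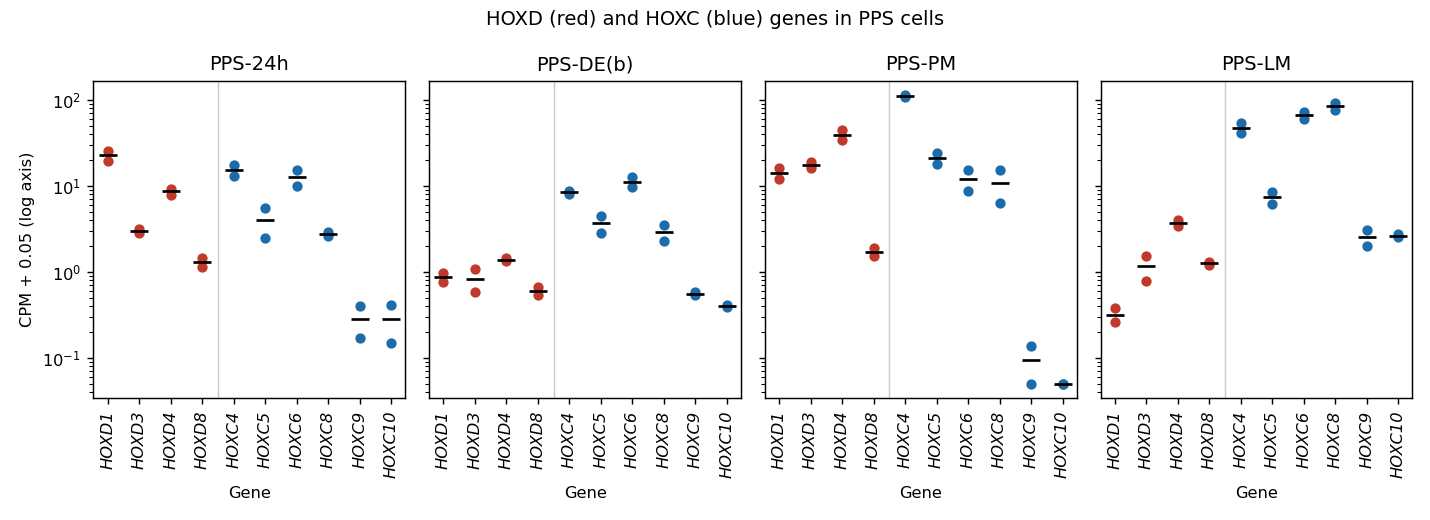
CPM (plus 0.05, log axis) of each HOXD (red) and HOXC (blue) member in both libraries of PPS-24h, PPS-DE(b), PPS-PM and PPS-LM, with the mean as a dash. HOXD1, HOXD3 and HOXD4 are lowest in PPS-LM or PPS-DE(b), and HOXC9 and HOXC10 are over 1 CPM only in PPS-LM.

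PPS-LM against PPS-PM gave 4 members higher and 3 lower, where 12% of all genes were called higher and 10.7% lower. HOXC9 and HOXC10, counted among those higher, passed the filter on low counts only through PPS-LM, so their calls are not independent of it. HOXC8 rose from 15.1 and 6.26 CPM to 76.6 and 91.9, by 3.06 on the log2 scale (SE 0.63, edgeR adjusted p = 0.0022). HOXC6 rose by 2.56 (SE 0.61, edgeR adjusted p = 0.0047), a call lost without replicate 2 of PPS-PM (adjusted p = 0.0685). HOXC10 rose from 0 in both libraries to 2.47 and 2.68 CPM, at least 18.9-fold (edgeR adjusted p = 0.0067). HOXC9 went from 0.0864 and 0 to 3.03 and 1.97 CPM (edgeR adjusted p = 0.0133), a call lost without replicate 1 of PPS-LM or replicate 2 of PPS-PM (adjusted p up to 0.0897).

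HOXD1, HOXD3 and HOXD4 were lower in PPS-LM than in PPS-PM. HOXD1 fell by 5.59 on the log2 scale (SE 0.65, edgeR adjusted p = 3.4e-06) and HOXD4 fell by 3.33 (SE 0.60, edgeR adjusted p = 0.00053), to 3.34 and 4.00 CPM. HOXD3 fell by 3.89 (SE 0.87, edgeR adjusted p = 0.0032), to 0.735 and 1.48 CPM, a call lost without replicate 1 of PPS-LM (adjusted p = 0.0552). HOXC4 was at 41.0 and 53.6 CPM in PPS-LM (log2 fold change -1.15, SE 0.89, edgeR adjusted p = 0.414), HOXC5 at 6.19 and 8.51 (-1.45, SE 1.11, edgeR adjusted p = 0.416), and HOXD8 at 1.27 and 1.15 (-0.39, SE 0.84, edgeR adjusted p = 0.811). None of these 3 was called. The median over the 10 members was -0.77, against 0 over all genes.

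**Figure D4:**
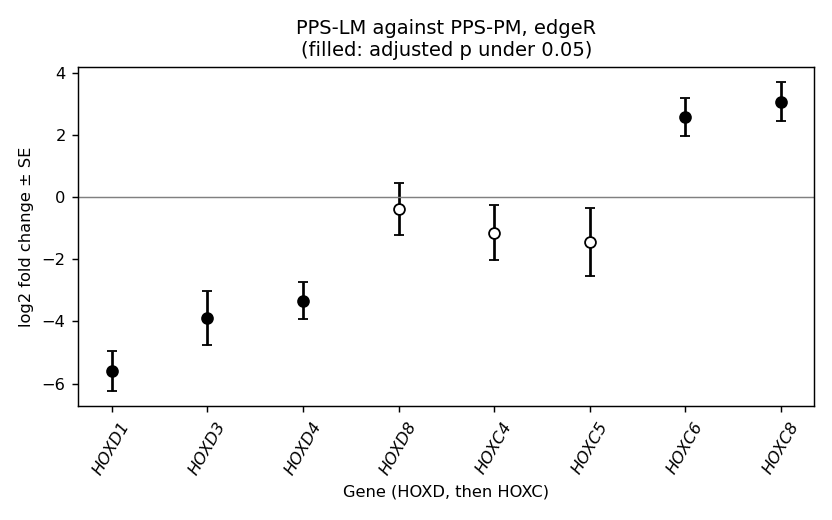
Log2 fold change of PPS-LM against PPS-PM from edgeR with its SE, for the 8 members above 3 counts in both conditions (filled points are called at an adjusted p of 0.05). HOXD1, HOXD3 and HOXD4 lie below 0, HOXC6 and HOXC8 above it, and HOXD8, HOXC4 and HOXC5 were not called.

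Per kilobase of exon, the order of the members changed with the medium. In PPS-PM, HOXC4 (39.6 and 40.8 CPM per kb) and HOXD4 (39.3 and 29.8) led, with their nearest libraries almost level. HOXC5 (11.2 and 15.1) and HOXD1 (6.37 and 8.45) followed. In PPS-LM the order was HOXC8 (31.7 and 38.0), HOXC6 (17.5 and 21.1) and HOXC4 (14.8 and 19.4), with HOXC6 and HOXC4 overlapping, and HOXD4 came at 2.94 and 3.52. In PPS-24h, HOXD1 (10.4 and 13.6) was above HOXD4 (6.95 and 8.14) and HOXC4 (6.39 and 4.66).

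In DE(b) medium, HOXD1 and HOXD4 were called lower in PPS cells than at 24 h, where 20.5% of all genes were called. No HOXC gene was called against the 24 h libraries. HOXC4 was at 8.77 and 8.02 CPM in PPS-DE(b), HOXC6 at 12.5 and 9.59, HOXC5 at 4.44 and 2.80, and HOXC8 at 3.46 and 2.25. The PPS-DE(b) and PPS-24h libraries overlapped for HOXC5, HOXC6 and HOXC8, while HOXC4 was lower in PPS-DE(b) without overlap. HOXD1 was at 0.721 and 0.909 CPM, a fall of 4.75 from PPS-24h (SE 0.59, edgeR adjusted p = 1.2e-05), and HOXD4 was at 1.39 and 1.28 CPM, a fall of 2.64 (SE 0.61, edgeR adjusted p = 0.0049; 0.0514 without replicate 2 of PPS-DE(b)). HOXD3 was at 0.529 and 1.03 CPM and HOXD8 at 0.625 and 0.485, both below PPS-24h without overlap, and neither was called. HOXC9 (0.529 and 0.485 CPM) and HOXC10 (0.336 and 0.364) were over 3 counts in both libraries.

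Against PPS-PM, 4 members were lower in PPS-DE(b) and 0 higher (18% of all genes called). HOXD1 was lower by a log2 change of -4.03 (SE 0.57), HOXD3 by -4.42 (SE 0.90), HOXD4 by -4.80 (SE 0.66) and HOXC4 by -3.65 (SE 0.98, edgeR adjusted p = 0.0162). The HOXC4 call was lost without replicate 2 of PPS-PM or either PPS-DE(b) library (adjusted p up to 0.120). Between PPS-LM and PPS-DE(b), 2 members were higher in PPS-LM and 0 lower (19% of all genes called), HOXC8 by 4.88 (SE 0.69) and HOXC6 by 2.60 (SE 0.61, edgeR adjusted p = 0.0051; 0.0714 without replicate 2 of PPS-DE(b)).

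Of 30 comparisons of PPS cells after day 2 with PPS-24h, 6 were higher and 3 lower, where 10.6% of all gene comparisons were called higher and 11.4% lower. The higher calls were HOXC4, HOXC8, HOXD3 and HOXD4 in PM and HOXC6 and HOXC8 in LM, and the lower ones HOXD1 in DE(b) and LM and HOXD4 in DE(b). The total of 9 fell to 5 without replicate 1 of PPS-24h or of PPS-PM and to 4 without replicate 2 of PPS-24h.

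In MPS cells, HOXC6 and HOXC8 were called higher in LM than in PM, and HOXC4, HOXD1, HOXD3, HOXD4 and HOXD8 lower. Of all genes, 18.2% were called in this comparison. The comparisons among MPS conditions were added after the data were seen too. HOXC8 was at 5.09 and 16.2 CPM in MPS-LM, HOXC6 at 5.38 and 11.96, HOXC4 at 3.14 and 10.03 and HOXC5 at 1.11 and 2.32. HOXD1 and HOXD3 were at 0 in both MPS-LM libraries, after 5.85 and 15.7 CPM and 0.391 and 1.57 CPM in MPS-24h. Against MPS-PM, HOXD1 was at least 117-fold lower and HOXD3 at least 49.1-fold lower, and HOXC8 was higher by 3.32 (SE 0.68, edgeR adjusted p = 0.0025). HOXD8 was at 0.0582 and 0.0474 CPM in MPS-LM against 0.883 and 1.11 in MPS-PM. Its call was lost without either MPS-LM library or replicate 2 of MPS-PM. HOXC4 was called lower than in MPS-PM and HOXC6 higher, calls lost when any of the 4 libraries (HOXC4, adjusted p up to 0.252) or replicate 2 of MPS-LM or either MPS-PM library (HOXC6, up to 0.307) was left out.

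Over the 3 comparisons of MPS-LM with MPS-PM and of MPS-LM and MPS-DE(b) with MPS-24h, 6 of 30 member comparisons were called higher and 9 lower, where 12.5% and 13.3% of all gene comparisons were. PPS-LM was above MPS-LM by 2.94 for HOXC8 (SE 0.63, edgeR adjusted p = 0.0114) and by 2.91 for HOXC6 (SE 0.62, edgeR adjusted p = 0.0080), and both calls were lost without replicate 1 of MPS-LM or replicate 2 of PPS-LM (adjusted p up to 0.133). HOXC4 was not called between them (2.80, SE 0.96, edgeR adjusted p = 0.121). In MPS-DE(b), HOXC4 alone was over 3 counts in both libraries, at 0.301 and 0.709 CPM. In DE(a) and APS cells given DE(b) or LM, no member passed 3 counts in both libraries, and the highest value was 0.233 CPM for HOXC8 in DE(a)-DE(b).

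Averaged over the 4 day 1 treatments, members were lower in DE(b) and LM than in PM. DE(b) was below PM for 7 members and LM for 6, of 8 that could be estimated, where 43% and 42% of all genes were called. A member was counted as estimated unless its SE was very large, which does not require counts in every condition. HOXC5 and HOXD1 were at 0 in both libraries of DE(a)-DE(b) and DE(a)-LM, and HOXC8 in DE(a)-24h. A log mean is not determined at such zeros, so the calls in this paragraph carry that limit. PM was above 24 h for the same number that could be estimated, 8 of 8 (48.2% of all genes), and HOXD1, HOXD3 and HOXD4 were, of 4 that could be estimated, below their 24 h mean in both DE(b) (51% of all genes called) and LM (56%). LM against DE(b) gave 0 calls in edgeR (0 at an unadjusted p under 0.05, 3 by DESeq2, 39.6% of all genes), and this mean on a log scale could be estimated for 0 of the 10 members because of conditions listed at 0. Dropping single libraries moved 3 of these counts by over 1.5 times: without replicate 2 of APS-24h, DE(b) and LM each had 1 member below 24 h, and without replicate 2 of DE(a)-PM, PM had 5 above 24 h.

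The effects of the first and second day were not additive for some members. The interaction over the 12 day 2 conditions was called for HOXC6 (edgeR adjusted p = 0.0025), HOXD1 (0.0057) and HOXD4 (0.0309), where 13.1% of all genes were called, and not for HOXC8 (edgeR adjusted p = 0.0709). HOXC6, HOXD1 and HOXD4 were each at 0 in both libraries of several of these conditions, where a log mean is not determined. The interaction was not repeated with single libraries left out. The PPS-minus-DE(a) difference of HOXC8 was larger in LM than in DE(b) (edgeR adjusted p = 0.0232; 8.99% of all genes called), and that of HOXD1 was smaller in PM than in DE(b) (edgeR adjusted p = 0.0171; 7.71% of all genes). For LM against PM, 0 members were called (6 at an unadjusted p under 0.05, 3 by DESeq2, 6.52% of all genes). Of the 10 members, 2 could be estimated for LM against DE(b) and 9 for each of the other 2 comparisons.

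The 8 other protein-coding genes of both clusters lie 5′ of the members, and 6 of them passed the filter on low counts. In PPS-LM against PPS-PM all 6 were called higher, where 12% of all genes were. HOXD12 passed the filter only through its PPS-LM libraries (1.89 and 1.75 CPM), so its call is not independent of the filter. HOXD13, which shapes the digits and the hindmost body, was at 25.0 and 17.6 CPM in PPS-LM, 4.05 and 1.75 in PPS-24h, and 0.216 and 0 in PPS-PM. HOXD9 was at 4.27 and 6.89 CPM in PPS-LM and 4.44 and 6.12 in PPS-24h, and at 0.0432 and 0 in PPS-PM. HOXD10 was at 7.23 and 13.2 CPM and HOXD11 at 5.77 and 9.14 in PPS-LM, with both genes at 0 in PPS-PM. From PPS-24h to PPS-PM, 5 of the 6 were called lower and 0 higher, while 4 of the 10 members were called higher (20.2% of all genes called). Within the HOXD cluster, the 3′ genes HOXD1, HOXD3 and HOXD4 were lower in PPS-LM than in PPS-PM. The 5′ genes HOXD9 to HOXD13 were higher, HOXD12 with the limit given above.

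HOXA and HOXB genes were at higher summed levels than the members. The 11 HOXA genes summed to 518 and 569 CPM in PPS-PM and the 10 HOXB genes to 1488 and 1485, against 236 and 219.6 for the 10 members. In PPS-LM against PPS-PM, 4 HOXA genes were called higher and 4 lower, and 2 HOXB genes higher and 3 lower. Of all genes, 12% were called higher there and 10.7% lower. CDX1, CDX2 and CDX4 together were at 569 and 647 CPM in PPS-24h, 481 and 504 in PPS-PM, 112 and 107 in PPS-LM and 38.6 and 27.02 in PPS-DE(b), and all 3 were called lower in PPS-LM than in PPS-PM. MEIS1, which encodes a HOX cofactor, was called higher in that comparison and went from between 3.76 and 3.90 CPM to between 56.3 and 63.3.

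By the correlation of log2(CPM + 1) over the 17 condition means among 16550 genes, the closest gene to HOXC4 was HOXC5 (r = 0.988), to HOXC6 it was HOXC8 (0.947), and to HOXC9 it was HOXC10 (0.992). HOXC8 was closest to FZD6, a Wnt receptor gene (0.967), HOXD1 to ZPLD1 (0.975) and then to MSGN1, a gene of presomitic mesoderm (0.966), HOXD3 to CD8B (0.973) and HOXD4 (0.972), HOXD4 to HOXA4 (0.975) and HOXD8 to HOXA7 (0.957). HOXC8 and HOXD1 had r = 0.03. The points share libraries and many low values, and the values are given as a description. Of 30 genes named this way, 3 per member, Spearman's rho kept 5 and a pseudocount of 0.1 kept 17.

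Replicates of the members were often apart. Of 60 values with at least 20 counts over both libraries, 15 were over 2-fold apart. Of all genes at the same cutoff, 5.19% to 11.7% were in any 1 condition, but these were not matched to the members for level. Replicate 2 was higher in 32 of the 60. In MPS-LM, 4 of 4 members were over 2-fold higher in replicate 2, and HOXA genes summed to 30.9 and 78.2 CPM there. In DE(a)-PM, HOXB genes summed to 214 and 558 CPM, with HOXC4 at 0.235 and 13.6.

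**Figure D5:**
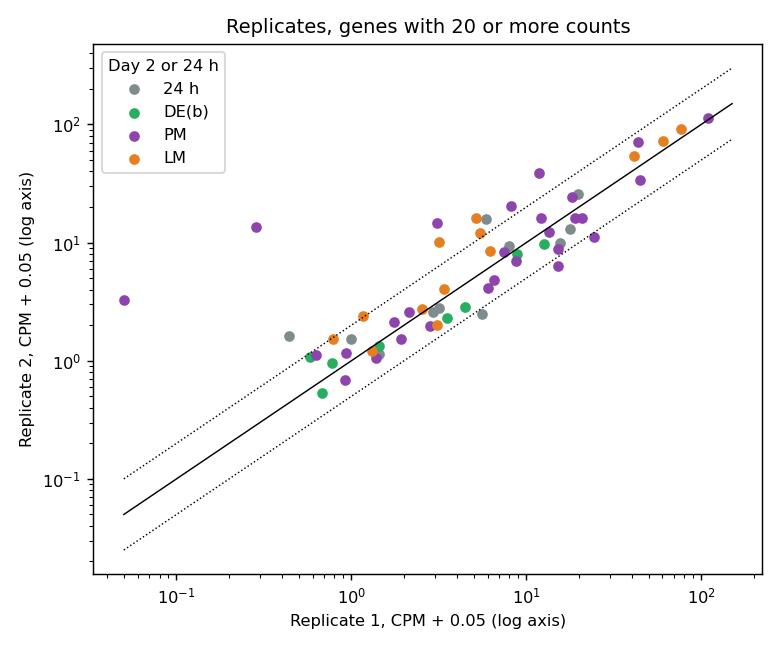
Replicate 2 against replicate 1 (CPM plus 0.05, log axes) for 60 values of members with at least 20 counts over both libraries, coloured by 24 h, DE(b), PM and LM. The solid line marks equality and the dotted lines a 2-fold difference, and 15 of the values were over 2-fold apart before 0.05 was added. The points furthest from equality are HOXC4 (0.235 and 13.6 CPM) and HOXC5 (0 and 3.22 CPM) in DE(a)-PM.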

How the data were processed

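Gene-level expected counts were deposited by the authors in tables of 34 libraries, which they made with Salmon 1.10.2 against GRCh38 from stranded poly(A) paired-end reads and summed to genes. The annotation behind the index is not given in the sources used here. The replicate number coincides with the deposited table: replicate 1 of each condition is in one table and replicate 2 in the other. The estimated counts were rounded to whole numbers for testing. CPM was computed from the counts as deposited.

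The members and all gene lists were chosen with earlier results of these data known. edgeR 4.0.16 (quasi-likelihood test, TMM factors, filterByExpr by condition, 1 mean for each of 17 conditions, 17 residual degrees of freedom, Benjamini-Hochberg adjustment at 0.05) was fitted to all 34 libraries and 17895 of 37951 genes. Named genes are the members, the other HOXC and HOXD genes and, for each member, the 3 genes of highest correlation, out of genes whose mean reached 1 CPM in any condition. HOXA, HOXB and CDX genes are given by counts, and the values of MEIS1 were chosen after they were seen. A list of cofactor genes is not reported here. Noncoding genes of both clusters were not analysed here. Lengths and positions are from GENCODE v44.

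Tested on simulated data for PPS against DE(a) at 24 h with 17895 genes, the fit called 7 of 80 genes changed by 1 on the log2 scale, 73 of 80 changed by 2 and 40 of 40 changed by 5. All genes were simulated with a single dispersion of 0.06, and only genes averaging at least 5 counts were changed. The shares therefore do not carry over to members with wider replicate spread or a group at 0. Alternatives were RLE factors, no filter, a replicate block, only the libraries compared, DESeq2 1.42.0, limma on log2(CPM + 0.5) and leaving out each library. The interaction was not run with DESeq2 or with libraries left out.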

Additional observations from a re-analysis of the deposited data

Results flagged for a closer look

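The difference between PPS and DE(a) cells differed between day 2 media for 2 members, by a test of the difference itself. For LM against DE(b), 1 of the 10 members was called, but only 2 could be estimated, too few to set beside the 8.99% of all genes called. For PM against DE(b), 1 member was called of 9 that could be estimated, where 7.71% of all genes were called. That share is near the members' own. For HOXC8 it was larger in LM than in DE(b) by 9.031 on the log2 scale (SE 2.32, edgeR adjusted p = 0.0232). HOXC8 was at 76.6 and 91.9 CPM in PPS-LM, 0 in DE(a)-LM, 3.46 and 2.25 in PPS-DE(b), and 0 and 0.233 in DE(a)-DE(b), so the size rests on DE(a) libraries at or near 0. For HOXD1 the difference was smaller in PM than in DE(b), with a value of -6.165 (SE 1.51, edgeR adjusted p = 0.0171). HOXD1 was at 12.01 and 15.9 CPM in PPS-PM, 7.45 and 8.25 in DE(a)-PM, 0.721 and 0.909 in PPS-DE(b) and 0 in DE(a)-DE(b), so this size rests on a group at 0 too. The HOXC8 call was lost without replicate 1 or 2 of DE(a)-LM or replicate 2 of DE(a)-DE(b), and the HOXD1 call without either DE(a)-DE(b) library.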

How the results depend on the processing

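With 2 libraries a condition, changes near 1 on the log2 scale were mostly below reach in the simulation, and members at 0 on both sides had no estimate. Larger changes of some members were not called either, such as those of HOXC5 and HOXD8 in PPS-PM against DE(a)-PM. RLE factors moved none of the counts by over 1.5 times. The replicate block gave 69 calls against the control and moved no count by over 1.5 times. PPS against DE(a) in PM gave 6 in place of 5. PPS against MPS gave 20 in place of 18, and PPS cells between day 2 treatments 15 in place of 13. Over 136 pairs of conditions, same-numbered libraries deviated together with r from -0.196 to 0.569 (median 0.162), 96 over 0.1 and 3 under -0.1. The main fit did not take the numbers as pairs, because not every pair was over 0.1. That rule does not show the replicates to be unpaired, and each number is also a deposited table. With only the libraries compared, PPS against DE(a) in DE(b) gave 5 calls, PPS minus DE(a) for LM against PM 1, and PPS cells between day 2 treatments 20. With no filter, APS against DE(a) gave 4, MPS against APS 13, PPS minus DE(a) 4 for PM against DE(b) and 5 for LM against PM, and the interaction 7. DESeq2 gave 1 for APS against DE(a), 3 for LM against DE(b), 5 for LM against 24 h and 3 for PPS minus DE(a), LM against PM. limma, chosen after seeing the data, gave 10 for LM against PM (4 higher, 6 lower), 5 for LM against DE(b) (all higher), 8 for LM against 24 h (5 higher, 3 lower), and for PPS minus DE(a) 5 for LM against DE(b) (all higher), 5 for PM against DE(b) (3 higher, 2 lower) and 4 for LM against PM (all higher), and 6 for the interaction. Of the 30 most similar genes, Spearman's rho kept 5 and a pseudocount of 0.1 kept 17. The causes were not tested.

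Leaving out 1 library, calls ranged from 55 to 71 against the control, and for PPS against DE(a) from 6 to 8 at 24 h, 5 to 8 in DE(b), 3 to 6 in PM and 6 to 10 in LM. APS against DE(a) gave 0 to 2 (2 without replicate 2 of DE(a)-PM), MPS against APS 3 to 4 and PPS against MPS 11 to 16. The means gave 5 to 6 for LM against PM, 6 to 7 for DE(b) against PM, 0 to 0 for LM against DE(b), 1 to 3 for DE(b) and for LM against 24 h, and 5 to 8 for PM against 24 h. PPS minus DE(a) gave 0 to 1 for LM against DE(b) and for PM against DE(b), and 0 to 2 for LM against PM (2 without replicate 1 of DE(a)-PM). PPS cells gave 11 to 13 between day 2 treatments and 4 to 8 against PPS-24h, PM against 24 h gave 17 to 19, and MPS cells 11 to 15. For HOXC5, DE(a)-PM against DE(a)-24h, the log2 change went from 0 without replicate 2 of DE(a)-PM to 8.906 without replicate 1. Of 110 called member values, RLE factors, no filter and the block lost 0, only the libraries compared lost 18, and DESeq2 lost 7 of 107. Of 440 values with 1 library left out, 121 were no longer called and 1 went to 0 (the HOXC5 value above), and 51 of the 110 lost their call without at least 1 library.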
